A study of Mus musculus with 16 samples.

Results

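The miR-17-92 cluster is a group of microRNAs (miRNAs) cut from a single long transcript of the mouse gene Mir17hg. Its 8 mature miRNAs named here, mmu-miR-17-5p, mmu-miR-17-3p, mmu-miR-18a-5p, mmu-miR-19a-3p, mmu-miR-19b-3p, mmu-miR-20a-5p, mmu-miR-92a-3p and mmu-miR-92a-1-5p, were taken by name from count tables that list 941 mature mouse miRNAs. The libraries came from RAW264.7 cells, a mouse macrophage line made from a virus-induced tumour of a BALB/c male, and from extracellular vesicles (EVs), the membrane-bound particles that cells release. There were 12 libraries of cells, in 4 groups of 3, and 4 libraries of EVs, 1 of each kind. The question set by the design was how EVs of different origin change the miRNAs of macrophages that are then exposed to concanavalin A (Con A), a lectin from jack bean that stimulates T cells, and that damages the liver of injected mice.

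The first group of cells received EVs from serum of female BALB/c mice bled 9 h after an intravenous dose of Con A at 15 mg/kg. The next received EVs shed by RAW264.7 cells during 24 h with Con A at 25 µg/mL, and another received EVs shed by RAW264.7 cells during 24 h with saline. The control cells received PBS. EVs were given at 6e9 particles per mL, and after 8 h every group, the PBS cells included, was treated with Con A for 16 h (concentration not stated in the sources used here). The EV libraries held serum Con A EVs, serum saline EVs, RAW Con A EVs and RAW saline EVs, and the mice were 8 to 9 weeks old. No library came from cells given serum saline EVs, so an effect of Con A in the mice and an effect of serum EVs as such cannot be told apart in the recipient cells. The cells that shed the RAW EVs were not profiled, and the sources used here do not state how many mice were pooled for serum EVs. Nothing in the labels ties the 3 libraries of a group to different cultures, and the p-values therefore rest on a spread that may be technical. Total RNA of a culture was measured, so fewer cells of a type and less RNA per cell cannot be told apart.

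A miRNA is cut from a hairpin whose arms, named 5p and 3p, give a mature strand each. The strand that is loaded into an Argonaute protein is usually the more abundant, and its seed, the bases from position 2 to 8, pairs with target mRNAs and lowers their output. The miR-17-92 transcript is induced by MYC and E2F proteins, and its miRNAs are known for promoting proliferation and survival, through targets such as Bcl2l11 and Cdkn1a. In human blood progenitors miR-17-5p and miR-20a-5p are known to act on RUNX1 and to decline as monocytes mature. Mammals carry related clusters: Mir106a-363 on the X chromosome, and Mir106b-25 inside the gene Mcm7.

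In RefSeq (GRCm38.p6) the 6 hairpins lie on the plus strand at chr14:115043671-115044506, a stretch of 836 bp inside the non-coding gene Mir17hg, in the order Mir17, Mir18, Mir19a, Mir20a, Mir19b-1 and Mir92-1. The mature sequences are shown because the 8 miRNAs fall into few seeds and some differ by so little that short reads must separate them. Capitals mark the seed, and miR-25-3p of the Mir106b-25 cluster is added because it shares its seed with miR-92a-3p.
mmu-miR-17-5p: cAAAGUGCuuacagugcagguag
mmu-miR-20a-5p: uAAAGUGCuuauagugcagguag
mmu-miR-18a-5p: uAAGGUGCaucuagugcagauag
mmu-miR-19a-3p: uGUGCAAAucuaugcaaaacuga
mmu-miR-19b-3p: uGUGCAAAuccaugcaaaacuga
mmu-miR-92a-3p: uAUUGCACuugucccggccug
mmu-miR-17-3p: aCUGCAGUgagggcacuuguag
mmu-miR-92a-1-5p: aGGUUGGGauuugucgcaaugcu
mmu-miR-25-3p: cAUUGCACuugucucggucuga

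miR-17-5p and miR-20a-5p share the seed AAAGUGC and differ by C1U and C12U, with positions counted from the 5′ end and the base of miR-17-5p first. miR-19a-3p and miR-19b-3p share the seed GUGCAAA and differ by U11C alone, with the base of miR-19a-3p first. miR-18a-5p carries a seed that no other member has, which differs from that of miR-17-5p by A4G. miR-106a-5p of the X-linked cluster differs from miR-17-5p only by U10A. Mature miR-19b-3p and miR-92a-3p are each encoded a second time, by Mir19b-2 and Mir92-2 in the X-linked cluster, so their reads cannot be assigned to chromosome 14 alone. The X-linked copies' own neighbours were scarce: miR-20b-5p had between 17.5 and 38.9 TMM-scaled CPM in the 12 cell libraries, miR-106a-5p between 2.76 and 11.9 CPM, and miR-363-3p had 0 reads in each. The other 6 members each have 1 gene in RefSeq.

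Totals of miRNA reads ran from 174510 to 403332 in cells and from 114791 to 334285 in EVs. A count of 0 then allows up to 17.2 CPM (the count scaled to a common library total) in the shallowest cell library and 26.1 CPM in the shallowest EV library. Intervals and limits of this kind cover counting error only, and may understate even that, since PCR copies are not independent molecules. The macrophage and myeloid list of 6 miRNAs took 26.5% to 32.1% of reads in cells, where miR-21a-5p alone took 24.0% to 28.6%, and 1.27% in serum Con A EVs, 5.63% in serum saline EVs, 4.05% in RAW Con A EVs and 11.3% in RAW saline EVs. The RAW Con A EV library went against its label in its leading miRNA: miR-122-5p, which is characteristic of hepatocytes, made up 20.8% of its reads, against 0.353% in the RAW saline EV library. It made up 39.2% of reads in serum Con A EVs and 9.95% in serum saline EVs. The erythrocyte list of 5 miRNAs held 2.59% of reads in serum Con A EVs, 14.9% in serum saline EVs, 0.237% in RAW Con A EVs and 0.352% in RAW saline EVs. What part these miRNAs have in the results on EVs was not tested.

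In cells the cluster was abundant and its members were far from equal. Together they made up 2.62% to 3.74% of miRNA reads in the 12 libraries. miR-20a-5p ranked 13 of the 781 miRNAs with reads, with a mean of 13218 TMM-scaled CPM over the 12 libraries, where TMM is edgeR's scaling between libraries. miR-17-5p had a mean of 7953 CPM on that scale and ranked 22, and miR-92a-3p had 6954 CPM and ranked 26. miR-19b-3p averaged 1388 CPM, miR-19a-3p 934 CPM and miR-18a-5p 417 CPM, at ranks 57, 73 and 102. The strands from the opposite arms were rarer, with 110 CPM for miR-17-3p and 40.6 CPM for miR-92a-1-5p. The 12-library ranges of miR-17-5p and miR-92a-3p overlapped, at 7196 to 8949 CPM and 5804 to 8006 CPM, so their order is not beyond the spread. Ranges of miR-17-3p and miR-92a-1-5p overlapped too, at 82.3 to 168 CPM and 9.68 to 102 CPM. Within each of the 12 libraries, however, miR-17-3p had more reads than miR-92a-1-5p. Ranges of the other neighbours in this order did not overlap, but counts of different miRNAs also depend on how well each sequence is ligated.

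**Figure D1:**
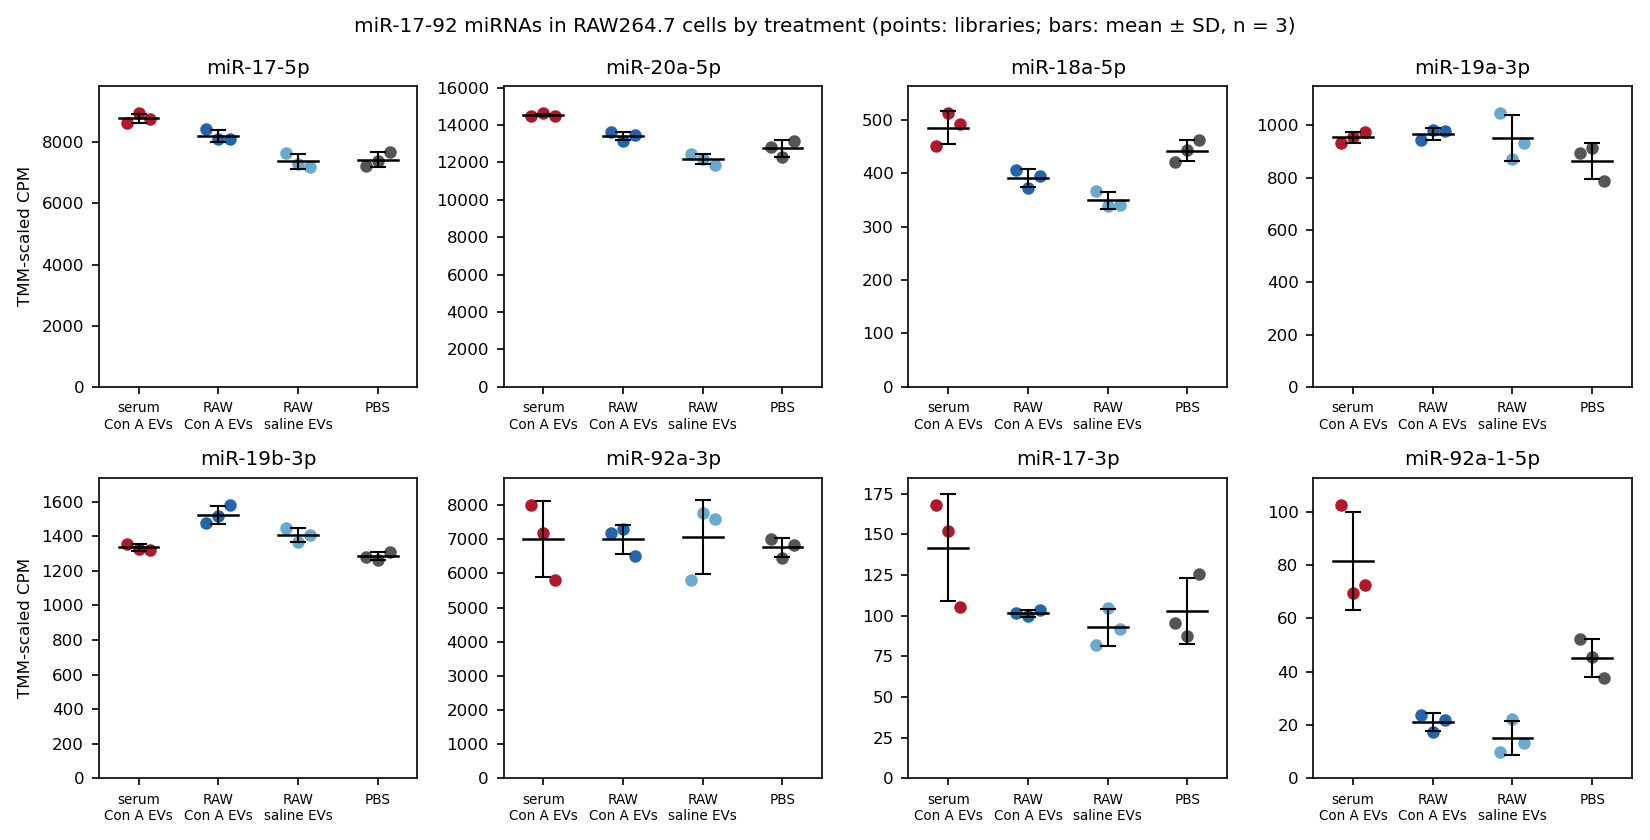
TMM-scaled CPM of the 8 miRNAs of the cluster in RAW264.7 cells given serum Con A EVs, RAW Con A EVs, RAW saline EVs or PBS; points are libraries and bars are the mean ± SD of 3. miR-17-5p and miR-20a-5p are highest in the serum Con A EV recipients, and miR-92a-1-5p spreads widest between groups, between 9.68 and 102 CPM.

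All 8 members passed the filter on low counts, which kept 229 miRNAs. miR-92a-1-5p passed through the serum Con A EV recipients and the PBS cells alone, since 0 of the libraries of either RAW EV group reached its limit of 35.6 CPM. The filter thus chose it by groups in which it was high, and the counts of calls below include it. With no filter its edgeR adjusted p was 0.0406 and 0.0388 in serum Con A and RAW saline EV recipients against PBS, and 9.78e-07 and 1.63e-08 in serum Con A against RAW Con A and RAW saline EV recipients.

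Cells given serum Con A EVs had more miR-17-5p, miR-20a-5p and miR-92a-1-5p than cells given PBS, while miR-92a-3p, as abundant as miR-17-5p within the spread, did not pass the test. By edgeR's quasi-likelihood test with Benjamini-Hochberg adjustment, 3 of 8 members rose and 0 fell, beside 7.86% higher and 13.5% lower among all 229 miRNAs tested. miR-17-5p and miR-20a-5p share a seed. The 3 libraries of the recipients lay wholly above PBS for 5 members and wholly below for 0, beside 19.7% and 16.6% of all miRNAs tested. With TMM scaling the log2 fold changes of all 8 were above 0, with a median of 0.17, against 0.01 over all miRNAs tested. The smallest were 0.05 for miR-92a-3p and 0.06 for miR-19b-3p. Upper-quartile scaling moved the median of all miRNAs by -0.06 in this comparison, so the sign of these 2 depends on the scaling.

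miR-17-5p, the founding member of the family, had 8642, 8949 and 8760 TMM-scaled CPM in serum Con A EV recipients and 7229, 7392 and 7692 CPM in PBS cells. The groups did not overlap. The log2 fold change was 0.24 ± 0.06 (SE; edgeR adjusted p = 0.00143). miR-20a-5p, its near twin in sequence, had 14503, 14624 and 14482 CPM in serum Con A EV recipients and 12809, 12273 and 13164 CPM in PBS cells. All 3 libraries of the recipients were above all 3 of the PBS cells. The log2 fold change was 0.19 ± 0.05 (SE; edgeR adjusted p = 0.00882). miR-92a-1-5p, the strand of the Mir92-1 hairpin that is usually discarded, had 102, 69.4 and 72.3 CPM in serum Con A EV recipients, from 39, 21 and 22 reads, and 52.2, 45.3 and 37.7 CPM in PBS cells, from 12, 14 and 12 reads. The groups did not overlap, and replicate 1 of the recipients stood above the other two. The log2 fold change was 0.89 ± 0.27 (SE; edgeR adjusted p = 0.0130).

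The remaining 5 members did not pass the test. miR-17-3p, the other strand of the Mir17 hairpin, had a log2 fold change of 0.47 ± 0.20 (SE; edgeR adjusted p = 0.0946), with 168, 152 and 105 CPM in serum Con A EV recipients and 95.8, 87.5 and 126 CPM in PBS cells, which overlap. miR-92a-3p averaged 6997 ± 1112 CPM in serum Con A EV recipients and 6758 ± 291 CPM in PBS cells (SD, n = 3 each), and the 95% interval of its log2 fold change ran from -0.13 to 0.23. The log2 fold changes of miR-18a-5p, miR-19a-3p and miR-19b-3p were 0.12, 0.15 and 0.06.

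Without PBS replicate 2, miR-20a-5p lost its call (edgeR adjusted p = 0.0892), and it lost it too under upper-quartile scaling (0.125) or with no filter (0.119). miR-92a-1-5p lost its call without PBS replicate 3 (edgeR adjusted p = 0.0839), without replicate 1 of the serum Con A EV recipients (0.138), by DESeq2 (0.157) and by limma-trend (0.0928), while miR-17-5p kept its call in all 6 leave-one-out fits and 8 other alternatives. miR-17-3p passed without replicate 3 of the serum Con A EV recipients (edgeR adjusted p = 0.0224).

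**Figure D2:**
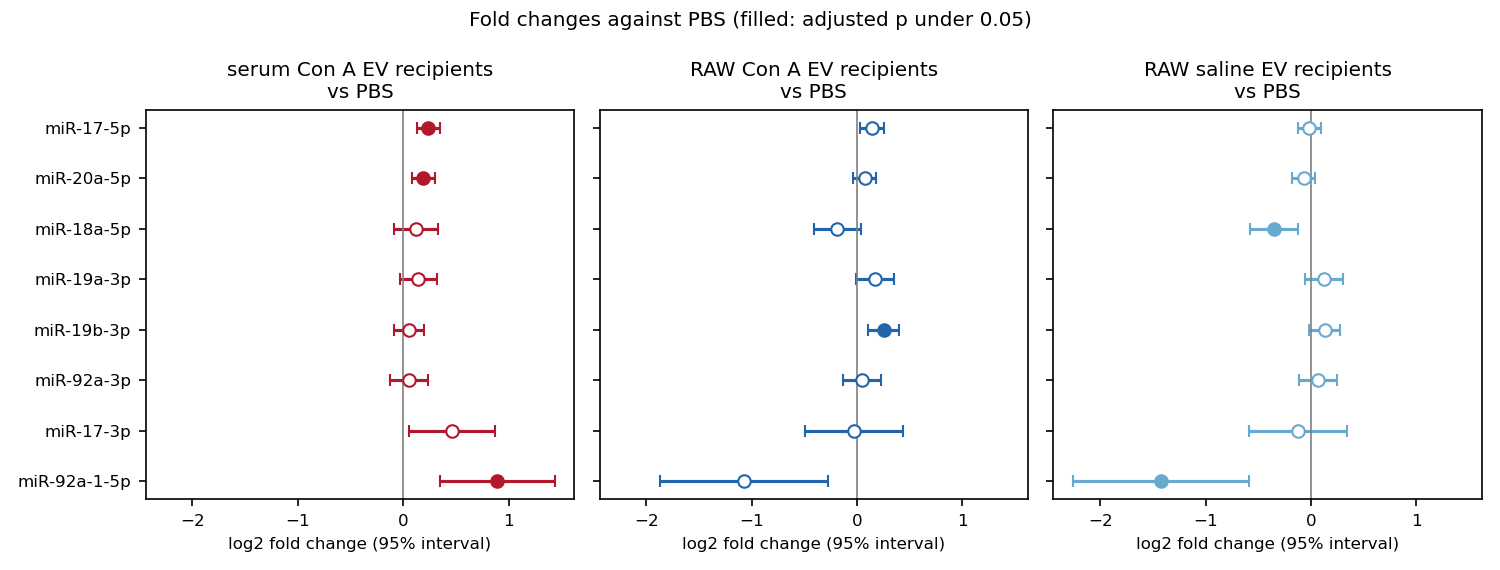
log2 fold changes of the 8 members against PBS cells, with 95% intervals from edgeR, in cells given serum Con A EVs, RAW Con A EVs or RAW saline EVs; filled points passed an adjusted p of 0.05. miR-92a-1-5p lies at 0.89 in the serum panel and at -1.42 in the RAW saline panel, on opposite sides of 0.

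The level of the cluster in the EVs given can be set beside this difference. In the serum Con A EV library miR-17-5p had 53.8 CPM and miR-20a-5p 153 CPM, and miR-92a-1-5p had 0 reads, which allows up to 8.97 CPM. On the same scale of library totals, miR-17-5p had at least 6847 CPM and miR-20a-5p at least 11285 CPM in each of the 12 cell libraries, and miR-92a-1-5p between 8.78 and 112 CPM. miR-122-5p, the second most abundant miRNA of that EV library at 39.2% of its reads, had 171, 169 and 250 TMM-scaled CPM in the recipients and 8.71, 22.7 and 25.2 CPM in PBS cells. The erythrocyte list moved the same way, with 30 to 50 reads per library in the recipients and 4 to 5 of its 5 miRNAs seen in each, against 0 to 1 read in PBS cells. The endothelial list of 2 miRNAs took 0.0843% to 0.0905% of reads in the recipients and 0.0619% to 0.0674% in PBS cells, with 1 called higher. Of the 6 macrophage and myeloid miRNAs, 2 were called lower and 0 higher, and the list took 26.5% to 28.6% of reads in the recipients and 28.6% to 29.9% in PBS cells. One was miR-155-5p, which is induced when macrophages are activated, with 204 to 231 TMM-scaled CPM in the recipients and 966 to 1167 CPM in PBS cells. Fold changes of 3 of the 6 were above 0. miR-146a-5p of the same list had 18407 to 19894 CPM in the recipients and 17145 to 18280 CPM in PBS cells, without overlap. What part these cell types or RNA carried over with the EVs has in the change of the cluster was not tested.

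In cells given RAW Con A EVs, 1 of 8 members rose and 0 fell against PBS by edgeR, beside 6.11% higher and 5.24% lower among all miRNAs tested, so a single call is near that background. The 3 libraries of the recipients lay wholly above PBS for 4 members and wholly below for 2, beside 13.5% and 11.8% of all miRNAs tested. The member called was miR-19b-3p, of the miR-19 seed. It had 1479, 1515 and 1582 TMM-scaled CPM in RAW Con A EV recipients and 1280, 1263 and 1308 CPM in PBS cells. The groups did not overlap, and the log2 fold change was 0.25 ± 0.07 (SE; edgeR adjusted p = 0.0181). Its sequence twin miR-19a-3p had 942, 982 and 977 CPM in RAW Con A EV recipients and 892, 913 and 786 CPM in PBS cells, with a log2 fold change of 0.17 ± 0.09 (SE; edgeR adjusted p = 0.284). Whether the twins differ from each other was not tested.

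miR-17-5p had 8446, 8106 and 8099 CPM in RAW Con A EV recipients, all above the PBS libraries, with a log2 fold change of 0.14 ± 0.06 (SE; edgeR adjusted p = 0.105). miR-92a-1-5p had 23.9, 17.3 and 21.8 CPM in RAW Con A EV recipients, from 4, 4 and 8 reads. All 3 were below the PBS libraries, and the log2 fold change of -1.07 ± 0.39 missed the threshold (SE; edgeR adjusted p = 0.0719). The median log2 fold change of the 8 members was 0.06, against -0.01 over all miRNAs tested. miR-122-5p moved in these recipients too, with 83.5, 51.9 and 79.1 CPM against 8.71, 22.7 and 25.2 CPM in PBS cells. The erythrocyte list had 3 to 6 reads per library against 0 to 1 in PBS cells, and its 1 tested miRNA, miR-451a, was called higher on 1 to 3 reads. miR-451a passed the filter only through the serum Con A EV recipients, since no library of another group had more than 6 reads of the whole list. The macrophage and myeloid list took 30.9% to 32.1% of reads in RAW Con A EV recipients and 28.6% to 29.9% in PBS cells, with 2 of 6 called higher and 1 lower. The part of these lists in the result was not tested. The comparisons with PBS all use the same 3 PBS libraries.

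The call on miR-19b-3p was lost without PBS replicate 1 (edgeR adjusted p = 0.0748) or 2 (0.0966), and without RAW Con A EV recipient replicate 2 (0.0573) or 3 (0.161). It was lost as well under upper-quartile scaling (edgeR adjusted p = 0.0638), with no filter (0.225) and by DESeq2 (0.0564). Scaled by library size alone, its log2 fold change was 0.12 (edgeR adjusted p = 0.272), while miR-18a-5p and miR-92a-1-5p passed as lower instead, at -0.33 (0.0412) and -1.21 (0.0378).

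In cells given RAW saline EVs, 0 members rose and 2 fell against PBS by edgeR, beside 7.42% higher and 6.55% lower among all miRNAs tested. Of the 2, miR-92a-1-5p passed the filter only through other groups, which leaves 1 of the other 7. The libraries lay wholly above PBS for 1 member and wholly below for 2, beside 15.7% of all miRNAs tested in either direction. miR-18a-5p, a member with a seed close to that of miR-17-5p, had 368, 340 and 341 TMM-scaled CPM in RAW saline EV recipients and 422, 444 and 462 CPM in PBS cells. The groups did not overlap, and the log2 fold change was -0.35 ± 0.11 (SE; edgeR adjusted p = 0.0302). miR-92a-1-5p had 9.68, 22.1 and 13.1 CPM in RAW saline EV recipients, from 2, 8 and 3 reads, all below the 37.7 to 52.2 CPM of PBS cells. Its log2 fold change was -1.42 ± 0.41 (SE; edgeR adjusted p = 0.0156).

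The abundant members stayed close to PBS in value. miR-17-5p averaged 7376 ± 233 CPM in RAW saline EV recipients and 7438 ± 235 CPM in PBS cells (SD, n = 3 each), with a 95% interval of the log2 fold change from -0.13 to 0.10. miR-20a-5p averaged 12169 ± 279 CPM in RAW saline EV recipients and 12749 ± 449 CPM in PBS cells. The median log2 fold change of the 8 members was -0.04, against 0.00 over all miRNAs tested. The macrophage and myeloid list took 30.9% to 31.9% of reads in RAW saline EV recipients and 28.6% to 29.9% in PBS cells, with 2 of 6 called higher. The endothelial list took 0.0458% to 0.0543% in RAW saline EV recipients and 0.0619% to 0.0674% in PBS cells, with 0 of 2 called. The part of these lists in the result was not tested.

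miR-18a-5p lost its call when any library of these groups other than PBS replicate 1 was left out: without PBS replicate 2 (edgeR adjusted p = 0.104) or 3 (0.107), or without RAW saline EV recipient replicate 1 (0.0596), 2 (0.0906) or 3 (0.0970). It was lost too with no filter (edgeR adjusted p = 0.117), with only the 2 groups in the fit (0.0760) and by DESeq2 (0.166). miR-92a-1-5p lost its call without PBS replicate 1 (edgeR adjusted p = 0.0587), without RAW saline EV recipient replicate 1 (0.0626) or 3 (0.0615), and by DESeq2 (0.0603). Scaled by library size alone, miR-20a-5p passed as lower, at -0.18 (edgeR adjusted p = 0.0177).

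The recipient groups were then tested against each other. Against cells given RAW Con A EVs, cells given serum Con A EVs had 2 members higher and 1 lower by edgeR, miR-92a-1-5p among them, beside 17.9% higher and 17.0% lower among all miRNAs tested, which is near the members' share. miR-92a-1-5p had 102, 69.4 and 72.3 TMM-scaled CPM in serum Con A EV recipients and 23.9, 17.3 and 21.8 CPM in RAW Con A EV recipients, a log2 difference of 1.97 ± 0.33 (SE; edgeR adjusted p = 1.46e-05). It passed the filter only through the serum Con A EV recipients and the PBS cells, and had 4, 4 and 8 reads in RAW Con A EV recipients. Without it, miR-18a-5p was the only member called higher. miR-18a-5p had 452, 513 and 493 CPM in serum Con A EV recipients and 406, 372 and 396 CPM in RAW Con A EV recipients, a log2 difference of 0.31 ± 0.11 (SE; edgeR adjusted p = 0.0240). miR-19b-3p was lower, with 1356, 1329 and 1321 CPM in serum Con A EV recipients and 1479, 1515 and 1582 CPM in RAW Con A EV recipients, a log2 difference of -0.20 ± 0.07 (SE; edgeR adjusted p = 0.0263). None of these 3 pairs of groups overlapped. Of the 8 members 5 lay wholly higher and 1 wholly lower, beside 53 and 54 of all 229 miRNAs tested.

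The call on miR-18a-5p in that comparison was lost without serum Con A EV recipient replicate 2 (edgeR adjusted p = 0.0710) or 3 (0.0674) and without RAW Con A EV recipient replicate 2 (0.0831) or 3 (0.0711), and by DESeq2 (0.117) or with no filter. miR-19b-3p lost its call without serum Con A EV recipient replicate 1 (edgeR adjusted p = 0.0514), 2 (0.0749) or 3 (0.0963) and without RAW Con A EV recipient replicate 2 (0.0625) or 3 (0.159), and also with no filter (0.205) and by DESeq2 (0.0753), and its log2 difference turned to 0.0189 when libraries were scaled by size alone. miR-17-3p passed as higher without serum Con A EV recipient replicate 3 (edgeR adjusted p = 0.0132).

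Against cells given RAW saline EVs, serum Con A EV recipients had 5 of 8 members higher and 0 lower by edgeR, beside 22.3% higher and 19.2% lower among all miRNAs tested. They were miR-92a-1-5p, miR-17-3p, miR-18a-5p, miR-20a-5p and miR-17-5p, with log2 differences of 2.32, 0.59, 0.48, 0.26 and 0.25. Their edgeR adjusted p-values were 1.26e-06, 0.0203, 0.000544, 0.000205 and 0.000348. Of these 5, miR-92a-1-5p passed the filter only through the serum Con A EV recipients and the PBS cells. Groups did not overlap for any of the 5: miR-17-3p, the closest case, had 105 to 168 CPM in serum Con A EV recipients and 82.3 to 105 CPM in RAW saline EV recipients. Of the 8 members 5 lay wholly higher and 1 wholly lower, beside 58 and 52 of all 229 miRNAs tested. The miR-19 pair and miR-92a-3p did not pass, with log2 differences of 0.02, -0.07 and -0.02 for miR-19a-3p, miR-19b-3p and miR-92a-3p. The median over the 8 was 0.25, against 0.04 over all miRNAs tested. The call on miR-17-3p was lost without serum Con A EV recipient replicate 1 (edgeR adjusted p = 0.170) or 2 (0.0673) and without RAW saline EV recipient replicate 1 (0.108) or 3 (0.0816), and also with no filter (0.0598) and by DESeq2 (0.115). The other 4 calls held when any 1 library of these groups was left out.

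Between cells given RAW Con A EVs and cells given RAW saline EVs, 0 members passed edgeR's test, beside 1.31% higher and 2.18% lower among all miRNAs tested. At an unadjusted p under 0.05 there were 2, miR-17-5p and miR-20a-5p, with log2 differences of 0.16 ± 0.06 and 0.14 ± 0.05 (SE; edgeR adjusted p = 0.162 and 0.186). DESeq2 and limma-trend also called 0. miR-17-5p had 8446, 8106 and 8099 CPM in RAW Con A EV recipients and 7639, 7292 and 7196 CPM in RAW saline EV recipients, without overlap.

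Ratios within the cluster need no scaling between libraries, and the arms of the Mir92-1 hairpin were set against each other first. For each 1000 reads of miR-92a-3p there were 12.8, 9.67 and 12.5 reads of miR-92a-1-5p in serum Con A EV recipients. The ratio was 3.32, 2.37 and 3.35 in RAW Con A EV recipients, 1.67, 2.84 and 1.73 in RAW saline EV recipients, and 7.46, 7.05 and 5.52 in PBS cells. The 3 recipient groups each lay wholly on 1 side of PBS, serum above it and both RAW groups below it. The exact 2-sided permutation test gave p = 0.1 for each against PBS, the smallest that 3 against 3 libraries allow, and 0.282 after Benjamini-Hochberg adjustment over the 48 shares and ratios compared.

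miR-18a-5p reads per 100 reads of miR-17-5p and miR-20a-5p together averaged 2.08 ± 0.12 in serum Con A EV recipients, 1.81 ± 0.05 in RAW Con A EV recipients, 1.79 ± 0.04 in RAW saline EV recipients and 2.19 ± 0.08 in PBS cells (SD, n = 3 each). Both RAW groups were below PBS without overlap (exact permutation p = 0.1 each, adjusted 0.282). The share of miR-19b-3p in cluster reads also lay on opposite sides of PBS without overlap (exact permutation p = 0.1 each, adjusted 0.282). It averaged 4.01% in serum Con A EV recipients, 4.82% in RAW Con A EV recipients, 4.79% in RAW saline EV recipients and 4.33% in PBS cells. miR-17-3p reads per 100 of miR-17-5p overlapped between each recipient group and PBS, with a range of 1.08 to 1.95 over the 12 libraries. The ratio of miR-20a-5p to miR-17-5p stayed between 1.61 and 1.77 in the 12 libraries.

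**Figure D3:**
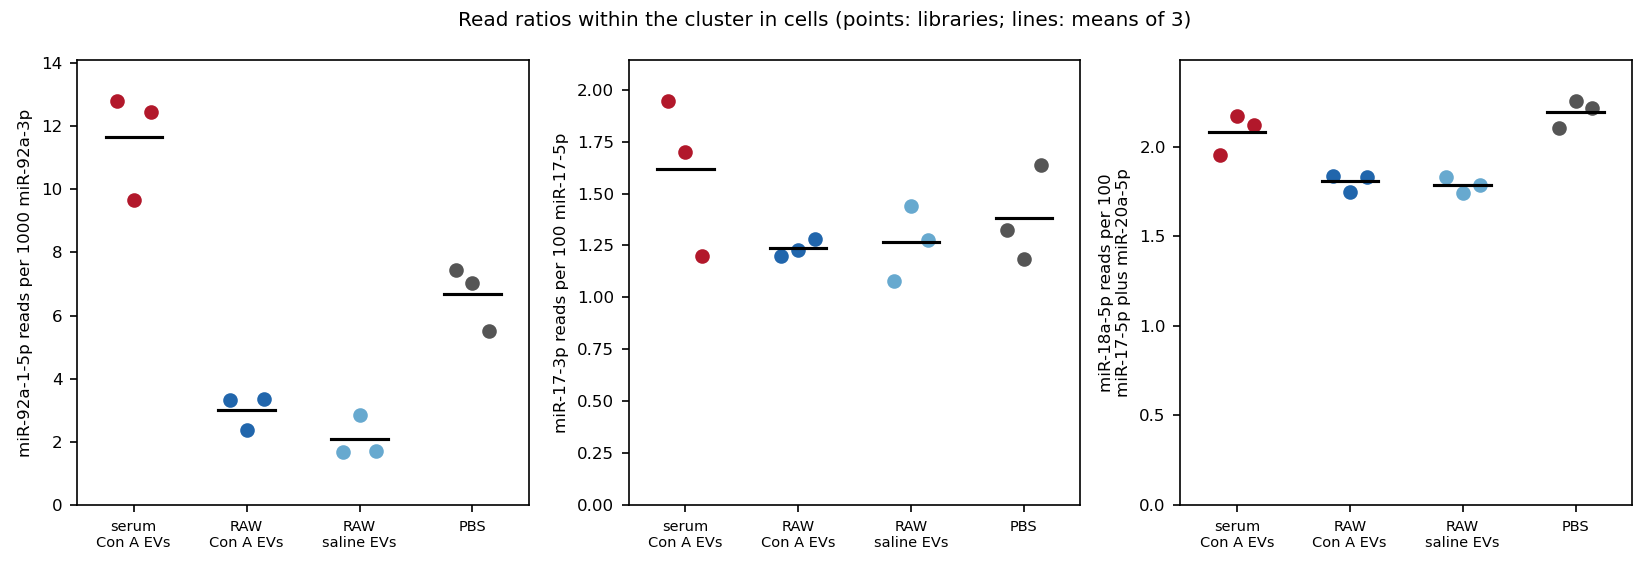
Read ratios within the cluster in cells given serum Con A EVs, RAW Con A EVs, RAW saline EVs or PBS; points are libraries and lines are means of 3. The ratio of miR-92a-1-5p to miR-92a-3p is 9.67 to 12.8 per 1000 in serum Con A EV recipients and 1.67 to 3.35 in both RAW groups, with PBS cells between them.

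The make-up of the cluster differed between EVs and cells. In cells miR-20a-5p led, with 40.3% to 45.2% of cluster reads in the 12 libraries, followed by miR-17-5p with 24.3% to 27.4% and miR-92a-3p with 18.1% to 25.9%. In EVs miR-92a-3p led in each of the 4 libraries. It made up 84.9% of cluster reads in serum Con A EVs (95% Wilson interval 81.7 to 87.6), 89.4% in serum saline EVs (87.6 to 90.9), 63.3% in RAW Con A EVs (60.6 to 65.9) and 45.0% in RAW saline EVs (42.9 to 47.2). Each of these lies above all 12 cell libraries. miR-17-5p took a smaller share there than in cells, with 3.09% of cluster reads in serum Con A EVs, 2.27% in serum saline EVs, 9.78% in RAW Con A EVs and 17.7% in RAW saline EVs. EV and cell RNA were extracted with different kits, per the labels' protocols, so kit and sample type cannot be told apart.

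**Figure D4:**
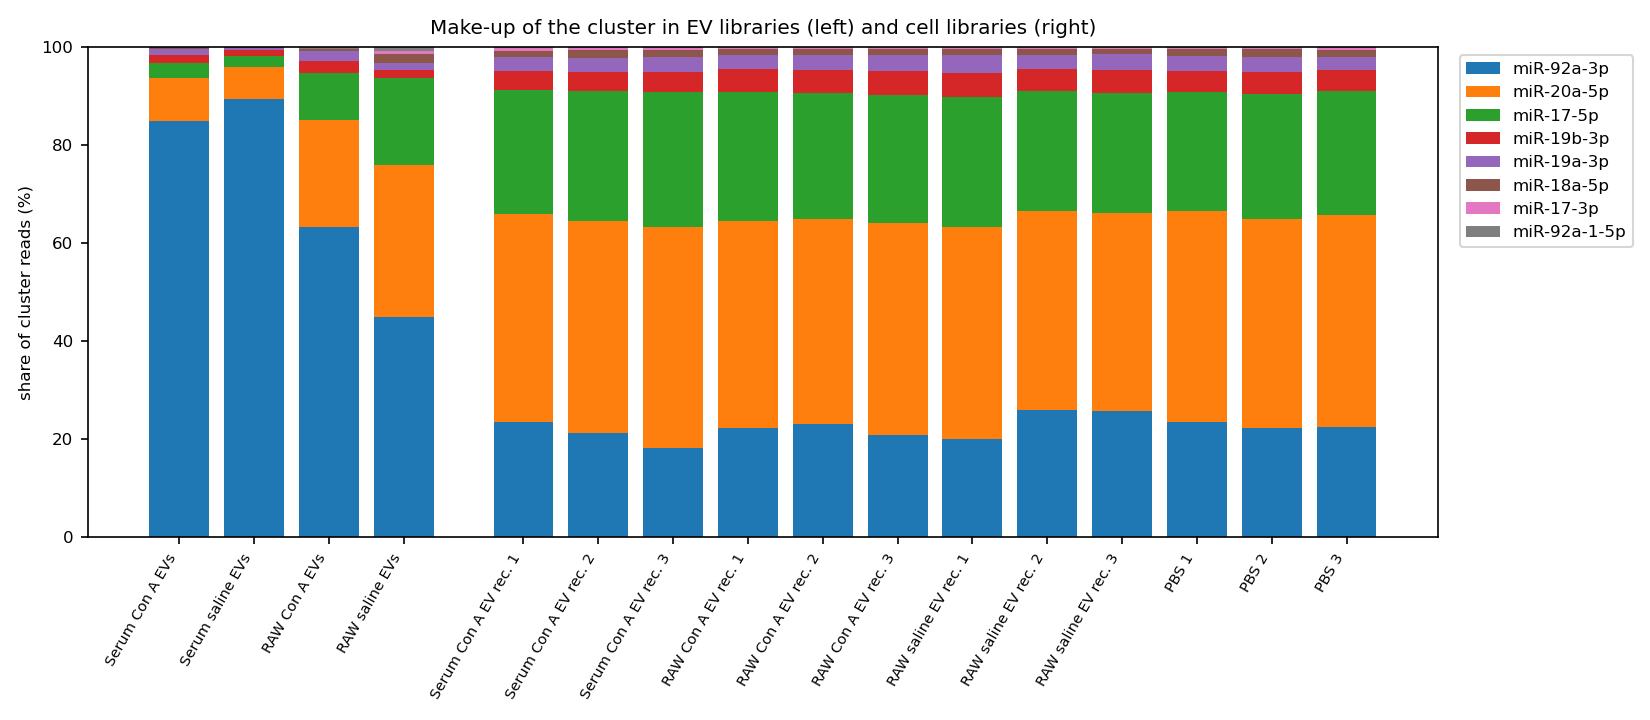
Share of each miRNA in the summed reads of the 8 members (%), in the 4 EV libraries on the left and the 12 cell libraries on the right; each bar is 1 library. miR-92a-3p takes 45.0% to 89.4% of the EV bars and 18.1% to 25.9% of the cell bars.

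The cluster as a whole was a smaller part of EV miRNA than of cell miRNA. Its 8 members held 0.174% of miRNA reads in serum Con A EVs, 1.00% in serum saline EVs, 0.940% in RAW Con A EVs and 1.76% in RAW saline EVs. RAW Con A EVs, set against the 3 PBS libraries, had 0 members more than 2-fold above all 3 and 5 more than 2-fold below all 3, of 6 members with enough reads. Among all 150 miRNAs with enough reads, 21.3% were higher and 39.3% lower by that rule. The limit on reads added the EV reads and the lowest PBS count. miR-18a-5p, miR-19a-3p and miR-19b-3p, with 5, 27 and 29 reads in RAW Con A EVs, therefore passed it only through the PBS cells, where they were high. miR-92a-3p was the exception, with 5953 CPM in RAW Con A EVs against 6576 to 7236 CPM in PBS cells, on the scale of library totals. miR-17-5p had 919 CPM in RAW Con A EVs and 7469 to 7920 CPM in PBS cells, 8.12-fold to 8.62-fold lower. Summed over the 8 members the ratio of RAW Con A EVs to the mean of PBS cells was 0.308. It was 0.145 without miR-19b-3p and miR-92a-3p, which have a second gene each, and 0.431 with miR-122-5p and miR-148a-3p, another miRNA abundant in liver, left out of the totals. The last alternative was added after the data were seen.

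RAW saline EVs came closer to the cells for the miR-17 seed. miR-17-5p had 3101 CPM there and miR-20a-5p 5436 CPM, against 7469 to 7920 and 12540 to 13555 CPM in PBS cells. miR-92a-1-5p stood out in RAW saline EVs: 18 reads gave 157 CPM (95% Wilson interval 99.2 to 248), against 38.9 to 54.0 CPM in PBS cells, and 1 EV library gives no test.

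**Figure D5:**
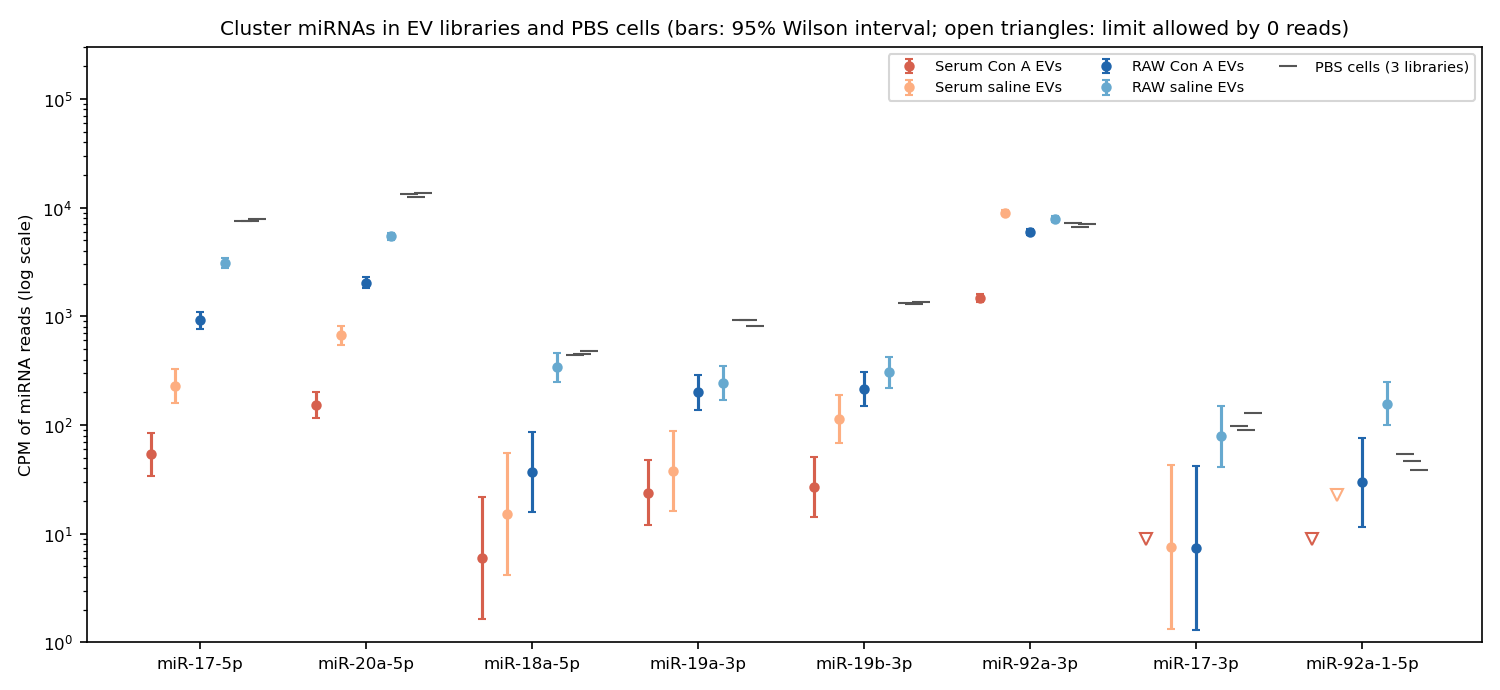
CPM of miRNA reads (log scale) of the 8 members in serum Con A, serum saline, RAW Con A and RAW saline EVs, with 95% Wilson intervals, and in the 3 libraries of PBS cells; open triangles mark the limit that 0 reads allow. miR-92a-3p is between 5953 and 8953 CPM in 3 EV libraries and 1478 CPM in serum Con A EVs, while miR-17-5p, miR-20a-5p, miR-19a-3p and miR-19b-3p lie below PBS cells in each EV library.

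Between the EV libraries no test is possible with 1 library of each kind, and intervals cover counting error only. RAW Con A EVs had 0.535 times the summed CPM of RAW saline EVs (exact 95% interval 0.498 to 0.574), from 1268 and 2017 reads. Of 5 members with at least 50 reads over both libraries, 0 were 2-fold or more higher and 2 were 2-fold or more lower, beside 23.9% higher and 29.1% lower among 134 miRNAs. The 2 were miR-17-5p, with 919 CPM in RAW Con A EVs and 3101 CPM in RAW saline EVs, and miR-20a-5p, with 2039 CPM in RAW Con A EVs and 5436 CPM in RAW saline EVs. miR-92a-3p had 5953 CPM in RAW Con A EVs and 7910 CPM in RAW saline EVs. Without miR-19b-3p and miR-92a-3p in the sum the ratio was 0.345, and without miR-122-5p and miR-148a-3p in the totals it was 0.731.

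Serum Con A EVs had 0.174 times the summed CPM of serum saline EVs (exact 95% interval 0.157 to 0.192), from 582 and 1324 reads. Both members with at least 50 reads were 2-fold or more lower and 0 were higher, beside 81.5% lower and 4.03% higher among 124 miRNAs. miR-92a-3p had 1478 CPM in serum Con A EVs and 8953 CPM in serum saline EVs, and miR-20a-5p had 153 CPM in serum Con A EVs and 666 CPM in serum saline EVs. miR-122-5p and miR-148a-3p together took most reads of the serum Con A EV library, and without them in the totals the ratio was 0.746. It was 0.795 by TMM and 0.266 without the top miRNA of each library. The direction depended on the scale: with the authors' deposited divisors, 2 for serum Con A and 126 for serum saline EVs, the ratio was 27.7, beside a median of 31.2 over all miRNAs with at least 50 reads. What these divisors count is not stated in the sources used here.

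Serum saline EVs had 0.570 times the summed CPM of RAW saline EVs (exact 95% interval 0.532 to 0.612), and 0.102 times without miR-19b-3p and miR-92a-3p. Of 4 members with at least 50 reads, 0 were 2-fold or more higher and 3 were 2-fold or more lower, beside 36.8% higher and 29.9% lower among 144 miRNAs. miR-17-5p, with 30 reads in serum saline EVs and 356 in RAW saline EVs, passed that limit only through the latter, where it was high. miR-19b-3p, also among the 3, had 15 reads in serum saline EVs and 35 in RAW saline EVs. miR-17-5p had 227 CPM in serum saline EVs and 3101 CPM in RAW saline EVs, 13.7-fold lower, while miR-92a-3p had 8953 CPM in serum saline EVs and 7910 CPM in RAW saline EVs. Serum Con A EVs had 0.185 times the summed CPM of RAW Con A EVs (exact 95% interval 0.168 to 0.204), with 0 of 3 members 2-fold or more higher and 3 of 3 lower, beside 10.8% higher and 70.8% lower among 120 miRNAs. There miR-17-5p was 17.1-fold lower and miR-92a-3p 4.03-fold lower. miR-17-5p had 18 reads in serum Con A EVs and 124 in RAW Con A EVs, and passed the limit on reads only through the latter. The summed ratio of serum Con A to RAW Con A EVs was 0.728 without the liver pair in the totals, 0.673 by TMM and 0.0731 without miR-19b-3p and miR-92a-3p.

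The related clusters gave a partial match in cells. Of the 6 miRNAs of Mir106b-25, 5 were tested, with a median log2 fold change of 0.29 in serum Con A EV recipients against PBS. By edgeR 3 rose and 0 fell, beside 7.86% higher and 13.5% lower among all miRNAs tested. The 3 that rose were miR-106b-3p at 0.33 (edgeR adjusted p = 0.00463), miR-106b-5p at 0.29 (0.0423) and miR-25-3p at 0.18 (0.0423). miR-106b-3p lost its call without PBS replicate 3 (edgeR adjusted p = 0.0541). miR-106b-5p lost it without PBS replicate 1 (edgeR adjusted p = 0.132), 2 (0.0931) or 3 (0.0775) and without serum Con A EV recipient replicate 2 (0.105) or 3 (0.244). miR-25-3p lost it without PBS replicate 2 (edgeR adjusted p = 0.234) or 3 (0.0919) and without serum Con A EV recipient replicate 1 (0.280). None of the 5 passed against PBS in cells given RAW Con A or RAW saline EVs. Among all miRNAs tested, 6.11% were higher and 5.24% lower with RAW Con A EVs, and 7.42% and 6.55% with RAW saline EVs. miR-25-5p, the rarer strand of the Mir25 hairpin, had 105, 92.6 and 69.0 TMM-scaled CPM in serum Con A EV recipients and 58.1, 38.7 and 35.0 CPM in RAW saline EV recipients, without overlap. Its log2 difference between these groups was 1.07 ± 0.27 (SE; edgeR adjusted p = 0.00177). Against RAW Con A EV recipients, serum Con A EV recipients were also higher in miR-106b-3p, miR-25-5p and miR-32-5p, which shares the seed of miR-92a-3p, with log2 differences of 0.40, 0.78 and 0.31 (edgeR adjusted p = 0.000676, 0.0212 and 0.00961). In that comparison 17.9% of all miRNAs tested were higher. There miR-25-5p lost its call without serum Con A EV recipient replicate 1 (edgeR adjusted p = 0.115) or RAW Con A EV recipient replicate 3 (0.173), with no filter (0.0547), by DESeq2 (0.129) and by limma-trend (0.0553), and miR-32-5p lost its call without RAW Con A EV recipient replicate 3 (0.170). miR-106b-3p was higher against RAW saline EV recipients too, by 0.40 (edgeR adjusted p = 0.000373), where 22.3% of all miRNAs tested were higher.

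Of the 10 names fixed for Mir106a-363, 5 are in the tables, 3 had reads in cells and 0 passed the filter. Of the other arms of the Mir17hg hairpins, 3 are in the tables and miR-18a-3p alone passed it. miR-18a-3p had 129, 92.6 and 88.7 CPM in serum Con A EV recipients and 91.4, 68.0 and 78.6 CPM in PBS cells, which overlap, and it passed the test in none of the 6 comparisons. miR-19b-1-5p and miR-20a-3p stayed at or below 19.8 CPM in the 12 cell libraries. miR-19a-5p was not analysed here.

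In EVs the rare strand of the Mir25 hairpin was read mainly in the RAW saline library. miR-25-5p had 114 reads, 993 CPM, in RAW saline EVs, 29.7 CPM in RAW Con A EVs and 0 reads in both serum EV libraries. miR-25-3p had 4688 CPM in serum Con A EVs, 37592 CPM in serum saline EVs, 11610 CPM in RAW Con A EVs and 5689 CPM in RAW saline EVs. Among members, miR-92a-1-5p likewise had 0 reads in both serum EV libraries, 4 in RAW Con A EVs and 18 in RAW saline EVs.

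miRNAs were ranked by how near their levels lay to the summed cluster over the 12 cell libraries. The measure was the root mean square difference of log2 CPM, each centred on its own mean. A miRNA that hardly changes can also score low, so a low value does not show that it moved with the cluster. Of 151 non-members averaging 100 CPM or more, the closest was miR-25-3p with 0.07, followed by let-7i-5p, miR-99b-5p, miR-99b-3p and miR-146b-5p with 0.08 to 0.09, beside a median of 0.18. miR-93-5p ranked 10, miR-106b-3p 50 and miR-106b-5p 75. Within the cluster, miR-20a-5p at 0.04 and miR-17-5p at 0.05 were closest to their own sum, to which they contribute most reads, and miR-17-3p at 0.22 was farther than the median non-member. miR-17-3p had only 17 to 64 reads per cell library. The member miR-92a-1-5p, with a mean of 40.6 CPM, lay below the limit of 100 CPM and was left out.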

How the data were processed

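Small RNA from RAW264.7 cells and EVs was sequenced as single reads of 51 bp, per the labels' protocols. The authors deposited raw counts, whole reads per mature miRNA name, and several sets of normalized signal values. Within a set these equal the count times 1 factor per library, as tested on the values. The factor of a library differed between sets: for PBS replicate 1 it was 1.22, 1.16 and 1.36. The submitters' processing notes name edgeR and give no version. For aligner, annotation and build, nothing is stated in the sources used here.

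Groups came from sample titles. Counts of cells were fitted with edgeR 4.0.16 under R 4.3.3 (filterByExpr with a minimum count of 10, TMM, 1 quasi-likelihood fit to all 12 libraries, 2-sided, Benjamini-Hochberg over 229 miRNAs per comparison, threshold 0.05). DESeq2 1.42.0 and limma 3.58.1 were alternatives, and the edgeR, limma and DESeq2 fits were tested on simulated data. EV libraries were compared by CPM with exact 95% Poisson ratio intervals, where both libraries together gave 50 reads or more, and a limit of 2-fold. For RAW Con A EVs against PBS cells, the EV reads plus the lowest PBS count had to reach 50. Shares have Wilson intervals, and shares and ratios in cells had exact permutation tests (scipy 1.17.1).

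Named were all 8 members, the other arms of their hairpins, called members of the related lists and the 5 non-members nearest to the summed cluster. miR-122-5p and miR-148a-3p in EVs, and uncalled relatives given by value, were named after their values were seen. Members and lists were chosen with earlier results of these data known.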

Additional observations from a re-analysis of the deposited data

Results flagged for a closer look

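Differences between recipient groups, tested directly by edgeR, passed an adjusted p of 0.05 in 8 cases. Between serum Con A and RAW Con A EV recipients they were miR-92a-1-5p at a log2 difference of 1.97, miR-18a-5p at 0.31 and miR-19b-3p at -0.20, beside 17.9% higher and 17.0% lower among all miRNAs tested. Between serum Con A and RAW saline EV recipients they were miR-92a-1-5p at 2.32, miR-17-3p at 0.59, miR-18a-5p at 0.48, miR-20a-5p at 0.26 and miR-17-5p at 0.25, beside 22.3% higher and 19.2% lower. With 1 library left out, the call was lost in 4 of 6 fits for miR-18a-5p and in 5 of 6 for miR-19b-3p against RAW Con A EV recipients, and in 4 of 6 for miR-17-3p against RAW saline EV recipients. Since both groups share the same PBS libraries, each is also the difference of their fold changes against PBS. miR-92a-1-5p had 21 to 39 reads per library in serum Con A EV recipients and 2 to 8 in both RAW EV groups, where it passed the filter through the other groups alone, and its fold change against PBS did not pass in RAW Con A EV recipients (edgeR adjusted p = 0.0719).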

How the results depend on the processing

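Of 196 alternative values of the 14 calls on members in cells, 149 kept direction and call, 46 lost the call and 1 reversed: miR-19b-3p in serum Con A against RAW Con A EV recipients, at a log2 difference of 0.0189 by library size alone. That scaling moved the median of all miRNAs by -0.14 and -0.10 in RAW Con A and RAW saline EV recipients against PBS and by 0.22 and 0.18 in serum Con A against RAW Con A and RAW saline EV recipients. Members called in RAW Con A EV recipients against PBS (1) were 0 by upper-quartile scaling, with no filter and by DESeq2, and 2 by library size alone. In RAW saline EV recipients against PBS (2) they were 1 with no filter or only the 2 groups and 0 by DESeq2. In serum Con A against RAW Con A EV recipients (3) they were 5 by library size alone and 1 with no filter or by DESeq2. With 1 library left out, member calls ranged from 0 to 1, 0 to 1 and 1 to 3 in these comparisons. A replicate block called 3, 1, 2, 3, 5 and 0 members in the 6 comparisons and changed none of these counts, and over all miRNAs it called 50, 23, 34, 81, 95 and 9. Same-numbered libraries deviated together (r over 0.1) in 2 of 18 pairs, with r from -0.211 to 0.202, and in 3 of 18 the same number gave the highest correlation.

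Over all miRNAs, 26 calls in RAW Con A EV recipients against PBS became 16 with no filter or by DESeq2, 32 in RAW saline EV recipients against PBS became 51 by library size alone, and 8 between the RAW groups became 4 by upper-quartile scaling or DESeq2, 5 by library size alone and 3 with only the 2 groups, and ranged from 1 to 8 with 1 library left out. By library size alone the split of higher and lower calls was 33 and 21 (18 and 31 by TMM) for serum Con A EV recipients, 6 and 30 (14 and 12) for RAW Con A and 9 and 42 (17 and 15) for RAW saline EV recipients against PBS. It was 85 and 19 (41 and 39) for serum Con A against RAW Con A and 77 and 27 (51 and 44) against RAW saline EV recipients. By upper-quartile scaling the splits against PBS were 13 and 37, 8 and 13, and 10 and 32.

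The summed EV ratio of serum Con A to serum saline was 0.174, and became 0.795 by TMM, 0.152 without erythrocyte miRNAs, 0.266 without the top miRNA of each library, 0.248 without miR-19b-3p and miR-92a-3p, 0.746 without miR-122-5p and miR-148a-3p, and 27.7 by the deposited divisors. RAW Con A to RAW saline (0.535) became 0.345 without miR-19b-3p and miR-92a-3p and 0.731 without the liver pair. Serum saline to RAW saline (0.570) became 0.620, 0.667, 0.491, 0.102 and 0.714 by the first 5 of these. Serum Con A to RAW Con A (0.185) became 0.673 by TMM, 0.256 without the top miRNA, 0.0731 without miR-19b-3p and miR-92a-3p and 0.728 without the liver pair. RAW Con A EVs to PBS cells (0.308) became 0.284 without the top miRNA, 0.145 without miR-19b-3p and miR-92a-3p and 0.431 without the liver pair. The share of miR-20a-5p, without miR-19b-3p and miR-92a-3p, was 58.2%, 58.1%, 58.1% and 58.9% in serum Con A, RAW Con A and RAW saline EV recipients and PBS cells. The divisors and the totals without the liver pair were chosen after seeing the data, and the causes were not tested. In serum Con A EV recipients against PBS, miR-106b-5p and miR-25-3p also lost their calls by DESeq2 (adjusted p = 0.148 and 0.0989), limma-trend (0.0545 and 0.0605), upper-quartile scaling (0.132 and 0.254), the size factors of DESeq2 in edgeR (0.0518 and 0.0577) and no filter (0.162 and 0.264). Few reads limit miR-92a-1-5p, miR-17-3p and, in EVs, miR-18a-5p. In both serum EV libraries they also limit miR-17-5p, miR-19a-3p and miR-19b-3p, with 5 to 30 reads each.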
